A study of Mus musculus with 12 samples.

Results

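Ino80 occupancy was examined at the loci of 6 developmental transcription factors in J1, a line of mouse embryonic stem cells. The loci were taken as 6 fixed windows of the mouse build mm9 around Sox17, Gata6, Gata4, T, Pax6 and Cdx2, and every Ino80 peak that overlapped a window by at least 1 bp was counted. Of the 12749 peaks in the list, 3 overlapped a window. The peaks come from 1 chromatin immunoprecipitation (ChIP) library, in which an Ino80 antibody recovered formaldehyde-fixed, sheared chromatin and the DNA was sequenced. The J1 cells of this group are labelled with no hairpin RNA, were kept in ESGRO medium and were moved to M15 medium for the ChIP. The series has 12 samples in all, each the only one of its group, and the other 11 were not analysed here. No value below has a replicate error, and the depth behind each peak is unknown because the list holds positions only.

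Ino80 is the ATPase of the INO80 complex, which slides and edits nucleosomes and is found at many active promoters. The genes at the 6 loci direct the first lineage choices of the embryo. Gata6 and Gata4 are zinc finger factors of primitive endoderm, and Sox17 is an HMG-box factor of endoderm. T, or brachyury, is the T-box factor of the primitive streak and mesoderm. Pax6 is a paired-box factor of neural and eye progenitors, and Cdx2 is a caudal-type homeobox factor of trophectoderm and the posterior embryo. In undifferentiated embryonic stem cells such genes are generally little transcribed and many are held by Polycomb repressors. No expression was measured in the data used here, so whether the 6 genes were silent in these cells was not examined.

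Ino80 peaks lay in the Pax6 and Cdx2 windows, while the Sox17, Gata6, Gata4 and T windows held none. The Pax6 window held 2 peaks and the Cdx2 window 1. Windows with a peak thus made up 33.3% of the 6 (95% Clopper-Pearson interval 4.33 to 77.7%, which covers counting error only). The interval treats the windows as equal draws, although they are fixed loci of 109 to 160 kb. The list gives only peaks past the caller's threshold, so a window without a peak may still carry Ino80 below that threshold.

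RefSeq promoter sequences, taken by gene symbol, were used for 3 of the 6 genes. No sequence of Sox17, Gata6 or Gata4 was used, and whether each lacked a match or was set aside is not given here. The promoters of these loci, all without a peak, were therefore not compared. The sequences used set both loci with a peak, Pax6 and Cdx2, beside T alone of the 4 loci without one. Each run is the 250 bases before a start of transcription, 5′ to 3′, with CpG dinucleotides, the sites of DNA methylation and the mark of CpG-rich promoters, in capitals. The positions are those of GRCm38.p6 and cannot be set against the mm9 peak positions. Whether a peak covers any of these sequences was therefore not determined.
Pax6 first start, chr2:105668646-105668895, + strand: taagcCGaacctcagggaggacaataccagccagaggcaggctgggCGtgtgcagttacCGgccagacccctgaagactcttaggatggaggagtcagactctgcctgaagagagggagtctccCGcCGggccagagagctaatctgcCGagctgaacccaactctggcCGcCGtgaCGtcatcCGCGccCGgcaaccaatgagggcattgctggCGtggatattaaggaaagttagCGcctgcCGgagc
Pax6 second start, chr2:105682213-105682462, + strand: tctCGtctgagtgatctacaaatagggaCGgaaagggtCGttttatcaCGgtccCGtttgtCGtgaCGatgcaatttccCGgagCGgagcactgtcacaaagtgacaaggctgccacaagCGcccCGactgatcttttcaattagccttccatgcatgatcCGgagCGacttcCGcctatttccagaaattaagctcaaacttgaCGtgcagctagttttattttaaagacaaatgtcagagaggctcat
Cdx2, chr5:147307250-147307499, - strand: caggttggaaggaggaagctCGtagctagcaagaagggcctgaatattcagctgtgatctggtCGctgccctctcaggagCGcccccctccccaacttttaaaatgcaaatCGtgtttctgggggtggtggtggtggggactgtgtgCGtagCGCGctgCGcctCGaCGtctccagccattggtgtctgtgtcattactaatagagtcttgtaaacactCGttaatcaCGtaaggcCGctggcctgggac
T, chr17:8434173-8434422, + strand: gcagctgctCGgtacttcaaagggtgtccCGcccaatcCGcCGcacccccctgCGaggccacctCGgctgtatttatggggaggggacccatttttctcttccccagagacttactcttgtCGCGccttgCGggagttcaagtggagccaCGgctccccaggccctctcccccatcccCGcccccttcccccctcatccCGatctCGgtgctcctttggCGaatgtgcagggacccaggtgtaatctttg

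The 4 promoters carried similar numbers of CpG dinucleotides. The first Pax6 start had 15, the second Pax6 start 15, T 14 and Cdx2 13, against a median of 6 over 32851 RefSeq promoter sequences. For 13 or more CpGs the share of all these promoters was 31.5%, and for 15 or more it was 27.3%. T, the only locus without a peak that was compared, lay within the range of the promoters from windows with a peak. Base composition ranged from 47.6% G and C at the second Pax6 start to 62.8% at T (median of all promoters 52.4%). Short letter strings were also searched on both strands. AAGATGG is the core bound by YY1, which associates with the INO80 complex. ATGCAAA is the core of the octamer bound by Oct4. The string AGATAA is recognised by factors of the Gata4 and Gata6 family. Overlap between these strings could not arise, since only the octamer core was found. The octamer core occurred once, on the forward strand of the Cdx2 promoter, and 4.12% of all promoters hold it on either strand. The YY1 core and the Gata string, held by 4.49% and 9.99% of all promoters, did not occur in the 4 sequences. A match describes letters and not binding.

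The neural locus Pax6 was the only one of the 6 with a pair of peaks. Its window ran from 105450000 to 105590000 on chromosome 2. The first peak, chr2:105515601-105518800, was 3.2 kb wide, and the second, chr2:105527401-105531200, was 3.8 kb wide. They were separated by 8.6 kb from edge to edge, and their midpoints lay 12.1 kb apart. Both were of ordinary width, since 59.6% of all peaks were as wide as the first or wider and 47.6% as wide as the second or wider. No other peak was near. The next peak to the left ended 208.6 kb before the window and the next to the right began 154.2 kb after it. In GRCm38 the protein-coding genes next to Pax6 are Rcn1 and Elp4, and Elp4, a subunit of the Elongator complex, overlaps Pax6 in that annotation. Which of these genes the mm9 peaks lie on was not determined.

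The trophectoderm locus Cdx2 held a single, wider peak. Its window ran from 148060000 to 148170000 on chromosome 5, and the peak, chr5:148114001-148119600, was 5.6 kb wide. It spanned the exact centre of the window. Peaks of at least that width made up 23.1% of the list and 24.4% of the peaks on chromosome 5. It stood 97.4 kb from its nearest neighbour, a distance reached or passed by 18.3% of all peaks. The nearest peak to the left of the window ended 56.6 kb before it and was 8.6 kb wide. The nearest to the right began 47.0 kb after it and was 3.6 kb wide. The neighbouring protein-coding genes in GRCm38 are Pdx1, a homeobox factor of the pancreas, and Urad, and the assignment of the flanking peaks to genes was not determined.

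The 3 endoderm loci and the mesoderm locus had no peak, but their distances from Ino80 differed widely. The Gata6 window, 11000000 to 11140000 on chromosome 18, lay in a peak-free stretch of 1088 kb, with 273 kb free on its left and 675 kb on its right. The Sox17 window, 4430000 to 4540000 on chromosome 1, lay in a stretch of 1112 kb, with 767.6 kb free on the left and 234.2 kb on the right. These were long gaps, since 3.59% and 3.47% of the 12523 distances between neighbouring autosomal peaks were as long. Because long gaps hold much sequence, gaps of at least these lengths made up 36.9% and 36.2% of the autosomal span. The Gata4 window, 63760000 to 63920000 on chromosome 14, missed a peak of 1.8 kb by 16.8 kb on its left, and its peak-free stretch measured 333.2 kb. The T window, 8577000 to 8686000 on chromosome 17, missed a peak of 3.0 kb by 10.4 kb on its left. On the right of T no peak followed for 1341 kb, and its whole peak-free stretch of 1460 kb was the longest at these loci. T therefore lay at the edge of a peak-free stretch, whereas Sox17 and Gata6 lay well inside theirs. The neighbouring protein-coding genes in GRCm38 are Rp1 and Mrpl15 for Sox17, Mib1 and Rbbp8 for Gata6, Neil2 and Blk for Gata4, and LOC115486424, which overlaps T, and Pde10a for T.

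**Figure D1:**
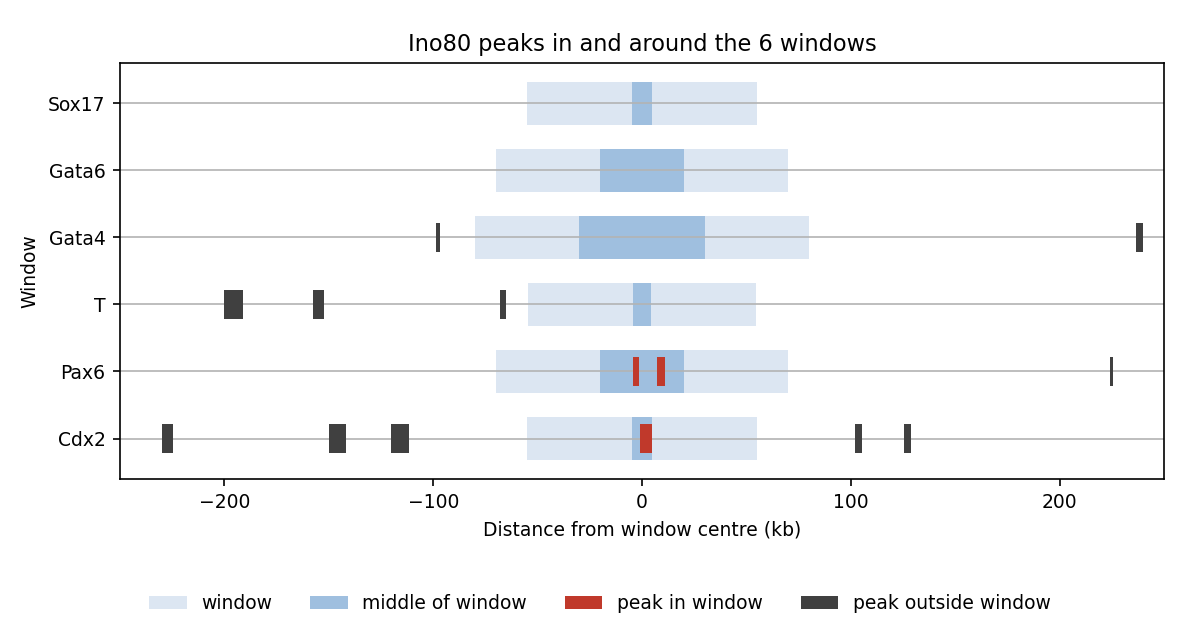
Ino80 peaks within 250 kb of the centre of each window, with distance from the centre in kb on the x axis and 1 row per window. Light blue marks the window, darker blue its middle, red the peaks inside a window and grey those outside: the 3 red peaks are in the middles of Pax6 and Cdx2, and Sox17 and Gata6 have no peak in view.

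The distance from the centre of a window to the nearest peak ordered the loci. It was 0 kb at Cdx2, 1.2 kb at Pax6, 64.9 kb at T, 96.8 kb at Gata4, 289.2 kb at Sox17 and 343 kb at Gata6. The median over 2393842 autosomal positions, taken every 1 kb, was 132 kb. T and Gata4 were thus nearer to a peak than the median position, and Sox17 and Gata6 farther. The centre of Gata6 was not extreme, since 26.7% of positions were as far from a peak or farther, and for Sox17 the share was 30.8%. At the other end, 96.6% of positions were as far as the Pax6 centre or farther.

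**Figure D2:**
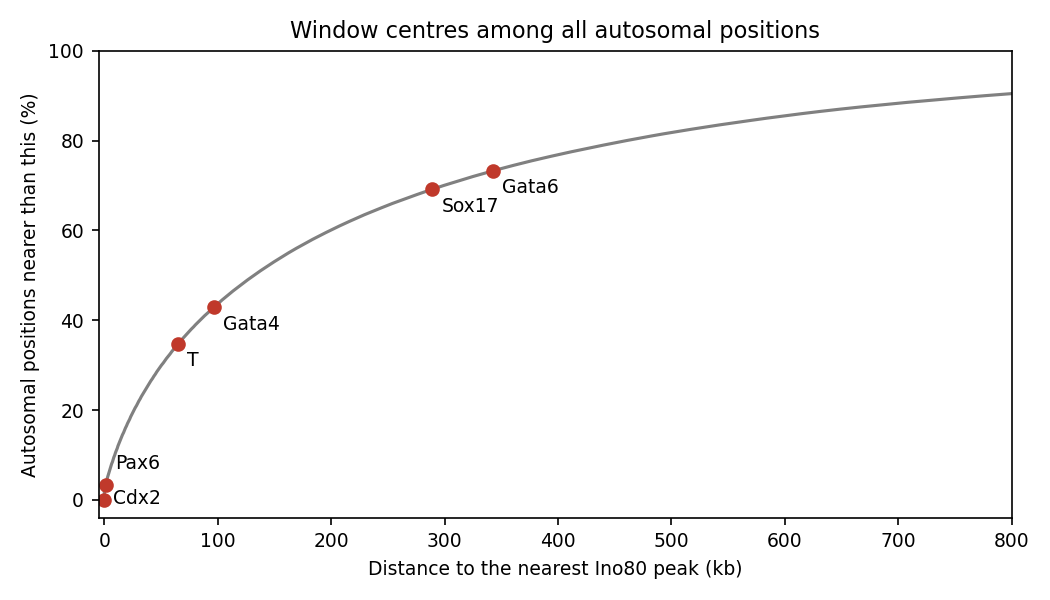
Share of autosomal positions, in percent, that lie nearer to an Ino80 peak than the distance in kb on the x axis (grey line), with the centres of the 6 windows as red points. Pax6 and Cdx2 sit at the lower left, at 1.2 and 0 kb, and Sox17 and Gata6 lie beyond the median of 132 kb.

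Against the whole genome the number of occupied windows was close to that of stretches of the same length. Each window was set beside every non-overlapping stretch, or tile, of its own length along the 19 autosomes, counted from each one's first peak to its last. At least 1 peak was present in 31.6% of the 21752 tiles of 110 kb (Sox17, Cdx2), 31.3% of those of 109 kb (T), 36.2% of those of 140 kb (Gata6, Pax6) and 38.8% of those of 160 kb (Gata4). Added over the 6 sizes, these shares give 2.06 windows with a peak, and 2 were found. Likewise the mean numbers of peaks per tile add to 4.16, and 3 were found. With 50 kb more at each end, 4 of 6 windows held a peak, Gata4 and T being added, and 6 peaks were counted. Of the tiles as long as these lengthened windows, 44.8% held a peak for Sox17 and Cdx2, 44.6% for T, 47.6% for Gata6 and Pax6 and 49.4% for Gata4. Added up, they give 2.79 windows with a peak and 7.30 peaks. The 6 windows together were 1.64% covered by peaks, compared with 2.28% of the autosomal span. Even taken as equal draws, the windows give a wide interval of 4.33 to 77.7% around the share occupied. The 6 windows therefore could not show a difference of moderate size from the genome.

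The single windows with a peak were not rare by their number of peaks. Tiles of 140 kb with 2 or more peaks, as at Pax6, made up 17.6% of all. Peaks covered 5% of the Pax6 window and 5.09% of the Cdx2 window. In 14.3% and 14.0% of the tiles of the same size, coverage was as high. Tiles without a peak made up 68.4% at the size of Sox17, 63.8% at that of Gata6, 61.2% at that of Gata4 and 68.7% at that of T, so an empty window was the most frequent outcome at each size. Tiles were not matched for gene content, because no mm9 annotation was used here. The share that windows drawn about other genes would give was not measured.

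**Figure D3:**
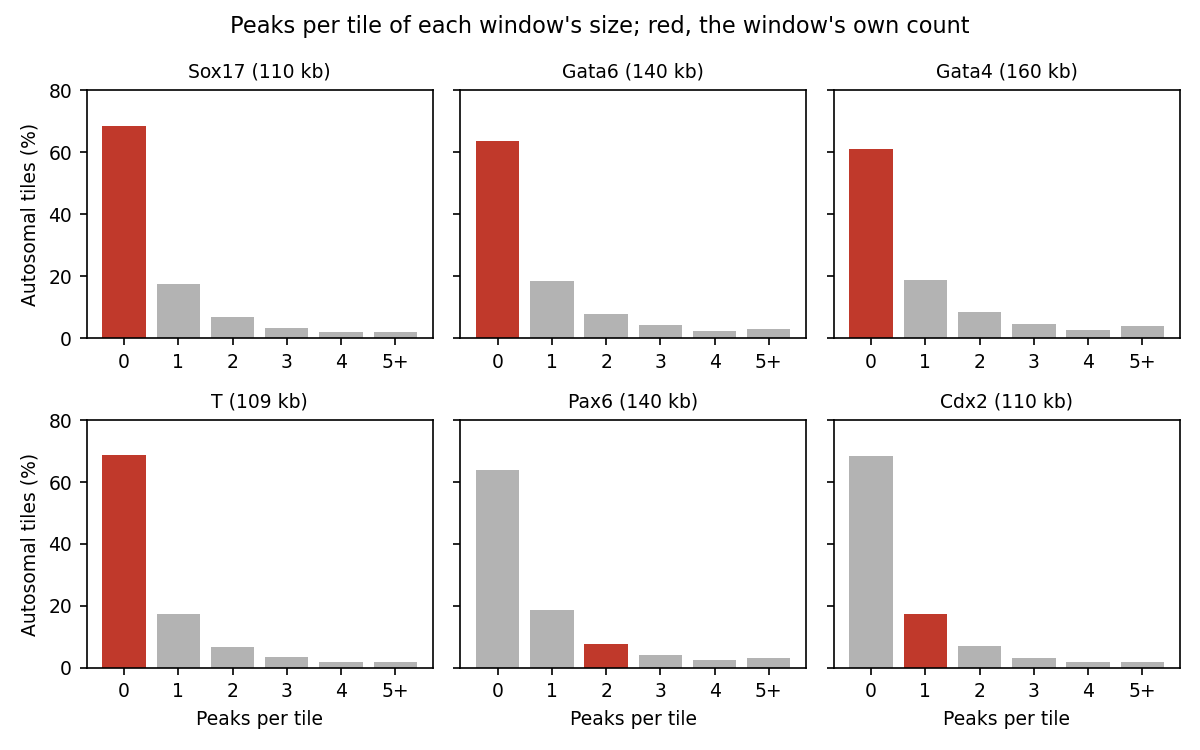
Percent of autosomal tiles, on the y axis, that hold 0 to 4 or at least 5 Ino80 peaks, on the x axis, for tiles of the length of each window. The red bar is the number found in the window itself: 0 for Sox17, Gata6, Gata4 and T, which is the most frequent class, 2 for Pax6 and 1 for Cdx2.

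Within the windows, the peaks were at the centre. Each window was divided into a middle and 2 flanks of 50 kb. The middles ranged from 9 to 60 kb and made up 22% of the 769 kb examined, and all 3 peaks lay in the Pax6 and Cdx2 middles. The 600 kb of flanks held none. Peaks covered 56.0% of the 10 kb middle of Cdx2 and 17.5% of the 40 kb middle of Pax6. Among all tiles of 10 kb, 6.78% held a peak and 1.13% were covered as much as the Cdx2 middle. Among all tiles of 40 kb, 16.8% held a peak, 4.60% held 2 or more and 4.09% were covered as much as the Pax6 middle. For the sizes of the empty middles the share with a peak was 6.78% for Sox17, 16.8% for Gata6, 21.7% for Gata4 and 6.36% for T. Added over the 6 middles these shares give 0.752, against 2 middles with a peak. This is a description of 2 loci and has no test. The windows appear to be drawn about the genes, but the rule does not give the genes' own positions.

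The 3 peaks were of the usual size for this list. Their widths of 3.2, 3.8 and 5.6 kb had a median of 3800 bp, and the whole list had a median of 3600 bp with quartiles at 2400 and 5200 bp. The Cdx2 peak lay above the upper quartile and both Pax6 peaks between the quartiles. Width on this list moves in steps of 200 bp and depends on settings of the caller that no source used here gives.

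**Figure D4:**
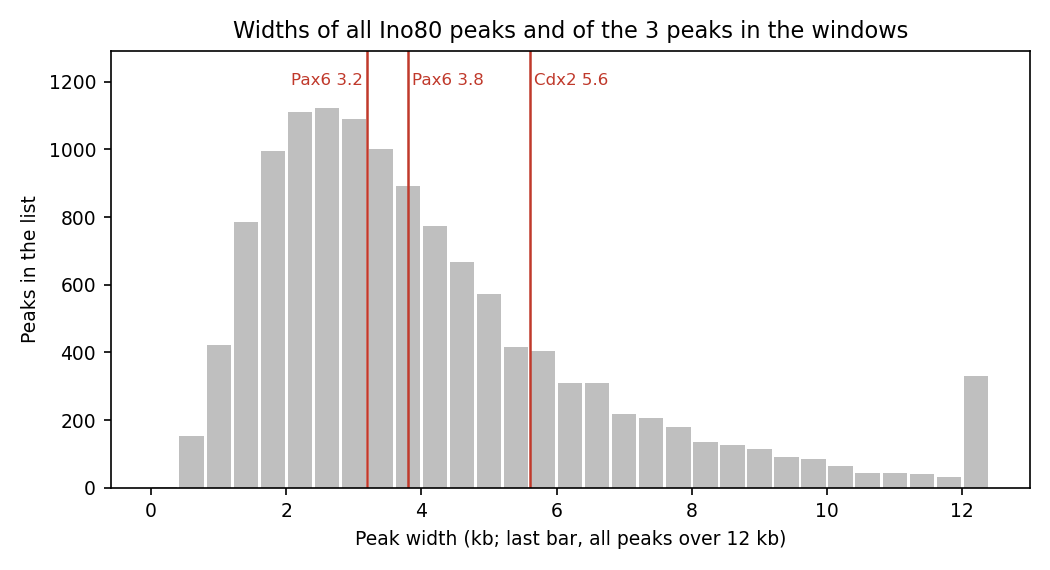
Number of peaks in the list, on the y axis, by width in kb, on the x axis, in steps of 400 bp with all peaks over 12 kb in the last bar. Red lines mark the Pax6 peaks at 3.2 and 3.8 kb and the Cdx2 peak at 5.6 kb, which lie in the body of the distribution.

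The wider surroundings differed between the loci, with most peaks around Cdx2 and fewest around Gata6 and T. Within 500 kb of the centre, 11 peak midpoints lay around Cdx2, 9 around Gata4, 6 around Sox17, 5 around Pax6 and 3 around each of Gata6 and T. The median autosomal position had 3. Within 1 Mb the numbers were 17 for Cdx2, 13 for Pax6, 11 for Gata4, 9 for Sox17 and 5 each for Gata6 and T, against a median of 7. Thus Gata4 and Sox17 had no peak in their windows although their surroundings held more peaks than the median position. Gata6 and T lay below that median within 1 Mb, where 39.9% of positions had as few peaks. For Cdx2, 82.7% of positions had as many peaks within 1 Mb or fewer. The same share was 60% for Sox17 and 67.3% for Gata4, and within 500 kb it was 71.5% and 82.5%.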

How the data were processed

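The values come from 1 Ino80 ChIP library of J1 cells. Per the submitters' processing notes, CASAVA 1.7, Bowtie 0.12.8, SICER 1.1 and bedtools were used, and the builds named are mm9 and hg19, with no role given for any of them. SICER joins enriched windows into broad islands. The list, as deposited by the authors, gives each peak's chromosome, start and end, with no count, score or p-value. Starts and ends lie on a grid of 200 bp, and 1 bp was added to each, on the reading that the list counts from 0 and includes its ends. Peaks were taken as mm9.

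Windows, tiles and the grid of positions were computed in Python 3.11.15 with numpy 2.4.6 and scipy 1.17.1, and plotted with matplotlib 3.10.9. A complete set of tiles replaced randomly drawn windows, and no test was made. The counting was tested on simulated data. Promoters and neighbouring genes are RefSeq, GRCm38.p6, and no coordinate was converted. Peaks at the starts of lists of lineage genes, planned with an mm9 annotation, were not examined. All 6 loci, every peak in them and the next protein-coding gene on each side are named. The loci and these choices were made with earlier results of these data known.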

Additional observations from a re-analysis of the deposited data

How the results depend on the processing

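Counting a peak by its midpoint, only when wholly inside, or in the middle of a window alone gave the same 3 peaks in 2 windows, and so did merging peaks less than 5000 bp apart. Lengthening each window by 50 kb at both ends gave 6 peaks in 4 windows, with 1 at Gata4, 1 at T and 2 at Cdx2, and none at Sox17 or Gata6. Tiles of the lengthened sizes held a peak in 44.6 to 49.4% of cases. With the widest 50% of peaks only, Pax6 kept 1 peak. Coverage of the Pax6 window was 17.5% in its middle, 2.92% when lengthened and 2.71% with the widest peaks. That of Cdx2 was 56.0% in its middle and 4.10% when lengthened, and that of Gata4 and T when lengthened 0.692% and 1.44%. The share of tiles with at least 2 peaks, as at Pax6, was 16.7% with chromosome X and 48.5% among tiles with a peak. It was 16.4% after merging and 18.8% on chromosome 2 alone. With the widest 50%, where Pax6 kept 1 peak, 21% of tiles held at least 1 such peak, a lower threshold. For Cdx2 the share with at least 1 peak was 30.2% with chromosome X and 18% with the widest 50%. It was 33.5% on chromosome 5 alone and, by construction, 100% among tiles with a peak. Tiles of the same chromosome held a peak in 27.4% (Sox17) to 39.3% (Pax6) of cases. A stricter threshold could not be set, because the list has no score. No paired analysis was possible because only 1 library was used.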

Other observations

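Outside the windows but within 200 kb of their edges lay 12 further peaks, around Gata4, T, Pax6 and Cdx2. Of these, 8 were 1.2 to 5.6 kb wide and 4 were wider, 1 of them over 10 kb. To the right of the Gata4 window, chr14:64112001-64130000 was 18 kb wide, and 0.502% of all peaks reach that width. To the left of the Cdx2 window, chr5:147965001-147973200 and chr5:147994801-148003400 were 8.2 and 8.6 kb wide, which 8.71% and 7.66% of all peaks reach, and both were wider than the Cdx2 peak of 5.6 kb. To the left of the T window, chr17:8431201-8440400 was 9.2 kb wide, a width that 6.27% of all peaks reach. These 4 peaks were singled out after their widths were seen, and the genes they lie on were not determined.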
